A study of Mus musculus with 12 samples.

Results

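The genes described here are named for the proteins of the cytosolic ribosome. They were taken by name from the annotated array: every probe set carrying a single symbol that begins with Rpl or Rps and a digit, or with Rplp or Rpsa, without the Rps6k kinases and without pseudogenes named as such. This gave 106 probe sets of 50 genes, out of 34945 probe sets with a single symbol. For a gene with several probe sets, the one brightest on average across the 12 arrays was used. Of the 50, 45 passed the filter on dim probe sets (log2 above 4 on at least 3 arrays) and were tested among 10435 genes in all. The 50 comprised 20 proteins of the large subunit, 21 of the small subunit, 2 of the stalk, 5 paralogs (Rpl3l, Rpl22l1, Rpl39l, Rps27l and Rps4l) and 2 proteins that bear such a name but are not ribosomal subunits (Rpl7l1 and Rps19bp1).

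Male C57BL/6 mice had their first operation at 7 weeks of age, and the left ventricular myocardium was profiled in 4 groups of 3 mice, 1 array per mouse. Mice of the DB3 group carried an aortic band for 4 weeks, had it removed and were examined after 3 days of recovery. Mice of the AB group carried the band for 4 weeks. The sDB3 mice, labelled as a sham operation with debanding afterwards, were the controls of DB3, and the sAB mice, with a sham operation, were the controls of AB. The labels name this 1 strain and no transgene for any group.

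A ribosome is built from a small subunit, which reads the mRNA, and a large subunit, which joins the amino acids, each a scaffold of rRNA covered by proteins made in near equal numbers. In vertebrates the mRNAs of these proteins begin with a run of pyrimidines (the 5' terminal oligopyrimidine tract) through which mTOR signalling controls their translation, so that the output of ribosomes can change without a change in these mRNAs. Enlargement of the loaded heart is accompanied by more protein synthesis. Some subunits have paralogs with narrower expression, such as Rpl3l, the form of Rpl3 made in heart and skeletal muscle.

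The sequences around the start of 6 members are shown because these genes carry the differences described below. As deposited, Rpl3l, Rpl22l1 and Rps27l differed in the banded ventricle against both shams, with the calls of Rps27l lost after centring on the genes tested. Rps18, Rps28 and Rpl38 are subunits whose calls depended on the sham or on the scaling. Each runs 5' to 3' on the strand of the gene from 60 bases before to 15 bases from the annotated start, from RefSeq on GRCm38.p6. Capitals mark runs of at least 8 pyrimidines and matches to CCGGAAG, the core letters of sites for ETS-family factors.
Rpl3l: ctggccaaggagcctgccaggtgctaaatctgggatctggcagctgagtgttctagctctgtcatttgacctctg
Rpl22l1: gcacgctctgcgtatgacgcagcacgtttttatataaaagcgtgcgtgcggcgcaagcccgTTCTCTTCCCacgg
Rps27l: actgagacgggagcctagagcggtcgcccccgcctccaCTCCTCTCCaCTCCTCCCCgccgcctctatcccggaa
Rps18: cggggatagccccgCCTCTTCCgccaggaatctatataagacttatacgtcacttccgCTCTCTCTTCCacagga
Rps28: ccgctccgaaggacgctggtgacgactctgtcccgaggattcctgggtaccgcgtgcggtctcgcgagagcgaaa
Rpl38: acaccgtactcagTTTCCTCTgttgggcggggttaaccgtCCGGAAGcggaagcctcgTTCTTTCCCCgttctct
These windows lie at chr17:24727766-24727840 (plus strand), chr3:28805448-28805522 (plus), chr9:66946026-66946100 (plus), chr17:33955651-33955725 (minus), chr17:33824548-33824622 (minus) and chr11:114668520-114668594 (plus), in the same order, and hold the proximal promoter and the first bases of the transcript. The promoter table held 44 of the 50 members. A pyrimidine run of at least 8 on the gene's strand lay in this window in 25 of the 44 members (56.8%), against 29.8% of the 27025 genes in the table. CCGGAAG, on either strand from 250 bases before to 50 after the start, was found in 21 of 44 members (47.7%), against 9.14% of all genes. TATAAA, on either strand of the shorter window, was found in 1 member (2.27%), Rpl22l1, against 4.65% of all genes. A match to CTTCCGG, the reverse complement of CCGGAAG, can overlap a pyrimidine run. The Rpl3l window held neither a pyrimidine run of this length nor, over the longer window, CCGGAAG, and the same was true of Rps28. These are matches of letters only.

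On these arrays the ribosomal protein mRNAs kept nearly the same level in all 4 groups. The mean log2 value of the 45 tested members was 12.55, 12.54 and 12.42 on the DB3 arrays, 12.47, 12.46 and 12.52 on the AB arrays, 12.52, 12.47 and 12.48 on the sDB3 arrays, and 12.44, 12.50 and 12.52 on the sAB arrays. All 4 groups overlapped, and their means of 12.51 ± 0.072 (DB3), 12.49 ± 0.032 (AB), 12.49 ± 0.029 (sDB3) and 12.49 ± 0.043 (sAB; SD, n = 3 each) differed by less than the spread between mice. In bulk tissue, fewer cells of a type and less RNA per cell cannot be told apart.

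The single members varied little as well. The range of a member's 4 group means had a median of 0.165 log2 units, against 0.345 over all genes tested and 0.274 over the 2033 other genes with a mean log2 value above 10. The median SD between mice of a group was 0.0721 for members, 0.133 for all genes and 0.0866 for those 2033 bright genes. The ranges of group means were wider among the 4 tested paralogs (median 0.513) than among the 39 tested subunit and stalk proteins (median 0.132). The SD between mice of a group was also larger in the paralogs, with medians of 0.140 and 0.0675. The sets also differed in level. The 39 subunit and stalk proteins averaged 12.84 to 12.89 by group, and the bright genes had array medians of 11.06 to 11.12. The 4 tested paralogs had means of 9.06 to 11.95 over the 12 arrays. The part of this SD and of the level in the ranges was not tested. Rpl27a had the widest range, 0.73, followed by Rpl3l with 0.67.

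**Figure D1:**
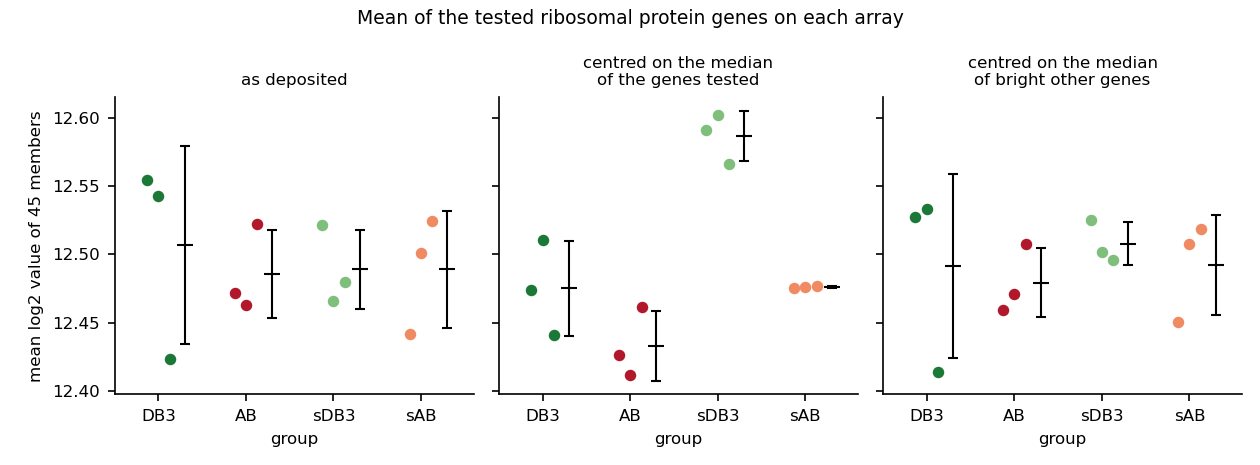
Mean log2 value of the 45 tested ribosomal protein genes (y axis) on each array, by group, for the values as deposited and after centring each array on the median of the genes tested or of 2033 bright genes that are not members. Points are mice and bars mean and SD (n = 3); the groups overlap as deposited, while the sDB3 arrays lie above the other 9 after centring on the genes tested.

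How the arrays are scaled decided the direction of the family against sDB3. The median of the genes tested was 7.87 to 7.94 on the sDB3 arrays and 7.98 to 8.09 on the other 9 arrays. Centring each array on that median lowered every difference of DB3 minus sDB3 by 0.13 and of AB minus sDB3 by 0.15, and raised those of sDB3 minus sAB by 0.11. It moved AB minus sAB by 0.04 and DB3 minus AB by 0.02 only. On this scale the mean of the members was 12.48 ± 0.035 in DB3, 12.43 ± 0.025 in AB, 12.59 ± 0.0185 in sDB3 and 12.48 ± 0.00070 in sAB, and every sDB3 array lay above the other 9. Centring on the bright genes, which are closer to the members in level, moved differences by at most 0.034 and gave 12.49 ± 0.067 in DB3, 12.48 ± 0.025 in AB, 12.51 ± 0.016 in sDB3 and 12.49 ± 0.037 in sAB, with overlapping groups.

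The arrays of the sAB group also stood apart on spiked controls, in both directions. The BioC transcript, added to every sample, averaged 10.35 on the sAB arrays and 8.39 to 8.41 in the other groups. Cre averaged 14.46 in sAB and 14.77 to 14.79 elsewhere, also without overlap, and BioD 12.37 in sAB and 12.56 to 12.60 elsewhere. Array handling and group cannot be told apart in comparisons that use sAB. The 3' minus 5' difference of the actin control, a sign of RNA quality, was 1.23 in DB3, 1.07 in AB, 1.22 in sDB3 and 1.22 in sAB. Its part in the results for AB was not tested. All 10 cardiomyocyte markers, among them Myh6, Tnnt2 and Ryr2, were tested, and their mean level was 15.15 to 15.17 on the DB3 arrays, 15.13 to 15.21 in AB, 15.25 to 15.30 in sDB3 and 15.17 to 15.21 in sAB. For these markers the 3 sDB3 arrays lay above the other 9 as deposited. For the members they did so only after centring on the genes tested, and overlapped the other groups as deposited. The summed level of 8 fibroblast markers, given as their mean, spanned 10.27 to 10.92 in DB3, 10.90 to 11.34 in AB, 10.43 to 10.50 in sDB3 and 10.20 to 11.13 in sAB. In AB minus sAB, 2 of 10 cardiomyocyte, 1 of 8 endothelial, 2 of 8 fibroblast, 3 of 8 smooth muscle and pericyte and none of 9 macrophage markers passed, all higher in AB. Of all genes, 12% were called higher and 7.69% lower there. In AB minus sDB3, 5 endothelial, 1 fibroblast and 3 smooth muscle and pericyte markers were higher in AB and 2 cardiomyocyte markers and 1 of 2 tested red blood cell markers lower. The shares of all genes were 17.3% higher and 4.69% lower. In DB3 minus AB, 1 endothelial, 1 fibroblast and 1 smooth muscle and pericyte marker were lower in DB3 and none of these lists had a marker higher. Here 4.04% of all genes were called higher and 5.12% lower. The mean of the 9 macrophage markers spanned 9.22 to 9.295 in DB3, 9.17 to 9.39 in AB and 9.09 to 9.30 in sDB3. In sAB it spanned 9.13 to 10.25. All 9 were lower in AB than in sAB (median -0.33) and in sDB3 than in sAB (median -0.45), none past the threshold. Lymphocyte markers were near the floor: 2 of 9 were tested, and Cd3e, Cd3g, Cd4 and Cd8a were not. The part of other cells in the members' values was not tested.

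After 4 weeks of banding, 4 of the 45 tested members were higher and 3 lower in AB than in sAB (limma, adjusted p under 0.05 over all genes), which is 7 members, against 12% of all genes called higher and 7.69% called lower. The median member difference was -0.01 and that of all genes 0.01, and 38 of 45 members (84.4%) lay within 0.2 log2 units of 0, against 56.2% of all genes. All 4 tested paralogs passed, 3 lower and 1 higher, and 3 of the 39 subunit and stalk proteins passed, all higher. Of the 3 lower paralogs, Rps4l is annotated by RefSeq as a transcribed pseudogene. The paralogs are taken up singly here, because 3 of the 7 also differed from sDB3.

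Rpl3l, the striated muscle form of the large subunit protein Rpl3, had log2 values of 11.75, 11.36 and 11.37 on the AB arrays, against 12.04, 11.98 and 12.06 on the sAB arrays and 12.14, 12.13 and 12.02 on the sDB3 arrays. All AB values lay below every sham value. The level was 1.45-fold lower in AB than in sAB (log2 difference -0.54 ± 0.12 SE, adjusted p = 0.0132) and 1.52-fold lower than in sDB3 (-0.60 ± 0.12, adjusted p = 0.00837). The difference from sAB missed the threshold without AB replicate 2 or without AB replicate 3 (highest adjusted p = 0.0579), and the difference from sDB3 passed whichever array was left out. Both comparisons use the same AB arrays. Rpl3 itself was carried only by probe sets with several symbols and was not analysed here.

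Rpl22l1, the paralog of the large subunit protein Rpl22, had 11.15, 10.99 and 11.08 on the AB arrays, against 11.42, 11.52 and 11.45 on the sAB arrays and 11.59, 11.35 and 11.62 on the sDB3 arrays. Again no AB value reached a sham value. It was 1.31-fold lower in AB than in sAB (-0.39 ± 0.10, adjusted p = 0.0177) and 1.36-fold lower than in sDB3 (-0.45 ± 0.10, adjusted p = 0.0103). The call against sAB was lost without AB replicate 2, AB replicate 3 or sAB replicate 2 (highest adjusted p = 0.0697). Rpl22, its partner, averaged 13.87 ± 0.023 in AB and 13.80 ± 0.14 in sAB (SD, n = 3 each), a difference of 0.08 ± 0.08 that did not pass (adjusted p = 0.508).

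Rps27l, the paralog of the small subunit protein Rps27 and in human cells a gene induced by p53, went the other way, with 11.51, 11.54 and 11.49 on the AB arrays, against 11.27, 11.29 and 11.28 on the sAB arrays and 11.33, 11.28 and 11.30 on the sDB3 arrays. The AB arrays lay above all shams. It was 1.18-fold higher in AB than in sAB (0.24 ± 0.06, adjusted p = 0.0148) and 1.16-fold higher than in sDB3 (0.21 ± 0.06, adjusted p = 0.0239). All 3 of its probe sets were higher in AB than in sAB, by 0.20 to 0.34. After centring on the genes tested, neither difference passed: 0.20 against sAB (adjusted p = 0.0604) and 0.06 against sDB3 (adjusted p = 0.564). As deposited, the call against sAB was lost without AB replicate 2 (adjusted p = 0.0561), and that against sDB3 without any single AB array, sDB3 replicate 2 or sDB3 replicate 3 (highest adjusted p = 0.0784). Rps27 was represented by a dim probe set and was not tested.

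Rps4l, annotated by RefSeq as a transcribed pseudogene, had 8.77, 8.44 and 9.15 on the AB arrays, against 9.41, 9.25 and 9.44 on the sAB arrays and 9.06, 9.04 and 9.12 on the sDB3 arrays. The AB values were below those of sAB but spanned those of sDB3. It was 1.49-fold lower in AB than in sAB (-0.58 ± 0.16, adjusted p = 0.0287), and AB minus sDB3 was -0.28 ± 0.16 (adjusted p = 0.228). The call was lost without AB replicate 1, AB replicate 2, sAB replicate 1 or sAB replicate 3 (highest adjusted p = 0.094).

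**Figure D2:**
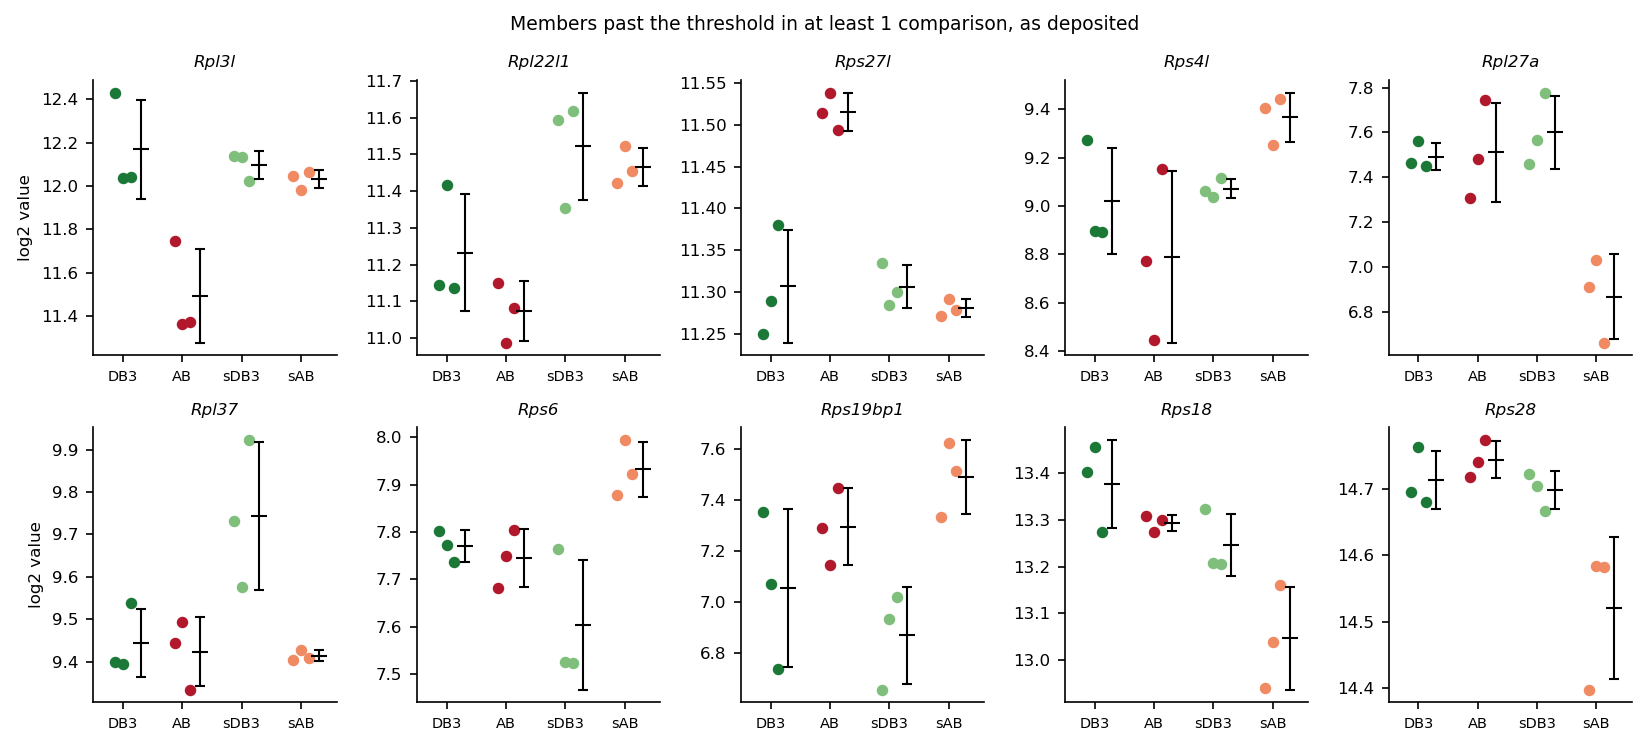
Log2 values as deposited (y axis, with its own range in each panel) of the 10 members that passed in at least 1 comparison, by group. Points are mice and bars mean and SD (n = 3); Rpl3l and Rpl22l1 are lowest and Rps27l highest in AB, while Rpl27a and Rps28 are lowest in sAB.

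The 3 subunit proteins that were higher in AB than in sAB were set apart by the sAB arrays. Rpl27a, a large subunit protein, had 7.31, 7.48 and 7.75 on the AB arrays and 6.91, 7.03 and 6.66 on the sAB arrays, against 7.46, 7.56 and 7.45 in DB3 and 7.46, 7.56 and 7.78 in sDB3. The 3 sAB arrays, which also stood apart on BioC, lay below the other 9. The difference of AB minus sAB was 0.64 ± 0.13 (1.56-fold, adjusted p = 0.00652), while AB minus sDB3 was -0.09 ± 0.13 (adjusted p = 0.655).

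Rps28, a small protein of the small subunit, had 14.72, 14.74 and 14.78 on the AB arrays and 14.40, 14.58 and 14.58 on the sAB arrays, against 14.72, 14.71 and 14.67 on the sDB3 arrays. The AB arrays lay above sAB and overlapped sDB3. AB minus sAB was 0.22 ± 0.07 (adjusted p = 0.0353), and AB minus sDB3 0.05 ± 0.07 (adjusted p = 0.642).

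Rps18, which sits in the head of the small subunit, had 13.31, 13.28 and 13.30 on the AB arrays and 12.94, 13.04 and 13.16 on the sAB arrays, against 13.32, 13.21 and 13.21 on the sDB3 arrays. The same order held: AB above sAB without overlap, and overlapping sDB3. AB minus sAB was 0.25 ± 0.07 (adjusted p = 0.0407), with 0.03 as the smallest difference among its 3 tested probe sets, and AB minus sDB3 0.05 ± 0.07 (adjusted p = 0.676). The Rps18 call was lost without any single AB array, sAB replicate 1 or sAB replicate 2 (highest adjusted p = 0.138), and the Rps28 call without any single AB array or sAB replicate 1 (highest adjusted p = 0.115). The Rpl27a call held whichever array was left out.

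Of the other members named for every comparison, none passed in AB minus sAB. Rplp0 and Rplp2 form the stalk that recruits elongation factors. Rplp0 averaged 14.74 ± 0.048 in AB and 14.87 ± 0.063 in sAB (difference -0.13, adjusted p = 0.168), and Rplp2 14.74 ± 0.011 in AB and 14.60 ± 0.091 in sAB (0.14, adjusted p = 0.135). These stalk proteins thus leaned in opposite directions, each within 0.2. Rps6, the small subunit protein phosphorylated by S6 kinase, had 7.68, 7.75 and 7.80 in AB and 7.88, 7.99 and 7.92 in sAB, without overlap (-0.19, adjusted p = 0.111). Rps3, at the mRNA entry channel, differed by 0.03 (adjusted p = 0.841), Rpl11, which binds Mdm2 when free of the ribosome, by 0.01 (adjusted p = 0.948), and Rpsa, also known as a laminin receptor, by 0.13 (adjusted p = 0.435). Rps4x, the X-linked small subunit protein, differed by 0.13 (adjusted p = 0.188), and Rps19bp1, a nucleolar protein that binds Rps19, by -0.20 (adjusted p = 0.412).

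After median centring, 2 members were higher and 4 lower in AB than in sAB, against 10.4% of all genes higher and 10.3% lower. Rpl27a (0.60) and Rps18 (0.21) were the higher ones, and Rps4l (-0.62), Rpl3l (-0.58), Rpl22l1 (-0.43) and Rps6 (-0.23, adjusted p = 0.0414) the lower ones. Rps28 (0.18, adjusted p = 0.0561) missed the threshold, as Rps27l did. On this scale the calls for Rpl3l, Rpl22l1 and Rpl27a held whichever array was left out, that for Rps4l was lost without AB replicate 2 or sAB replicate 1, and those for Rps18 and Rps6 were lost without 7 and 9 of the 12 arrays.

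Against sDB3, 1 member was higher in AB (Rps27l) and 3 were lower (Rpl3l, Rpl22l1 and Rpl37), at a background of 17.3% of all genes higher and 4.69% lower. The median member difference was 0.00 and that of all genes 0.11, and 37 of 45 members (82.2%) lay within 0.2, against 53.7% of all genes. Rpl37, a zinc-binding large subunit protein, had 9.44, 9.49 and 9.33 on the AB arrays, against 9.73, 9.58 and 9.92 on the sDB3 arrays and 9.40, 9.43 and 9.41 on the sAB arrays. Its sDB3 values lay above both other groups. AB minus sDB3 was -0.32 ± 0.09 (adjusted p = 0.0278), a call that was lost without any single AB array, sDB3 replicate 1 or sDB3 replicate 3 (highest adjusted p = 0.105), and AB minus sAB 0.01 ± 0.09 (adjusted p = 0.954). After median centring no member was higher and 10 were lower in AB than in sDB3, against 7.07% of all genes higher and 12.6% lower. The largest of these differences were those of Rpl3l (-0.75), Rpl22l1 (-0.60), Rpl37 (-0.47), Rpl7a (-0.27) and Rps2 (-0.26), and the median member difference was -0.15, against -0.04 for all genes. Of the 10 calls, those of Rpl3l, Rpl22l1 and Rpl37 held whichever array was left out. Leaving out AB replicate 2, sDB3 replicate 1 or sDB3 replicate 2 kept 4 of the 10, and leaving out AB replicate 1 or AB replicate 3 kept 5. On this scale 7 of 10 cardiomyocyte markers were also lower in AB than in sDB3, with a median of -0.26, and their part in these calls was not tested. With centring on the bright genes the counts were again 1 higher and 3 lower.

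**Figure D3:**
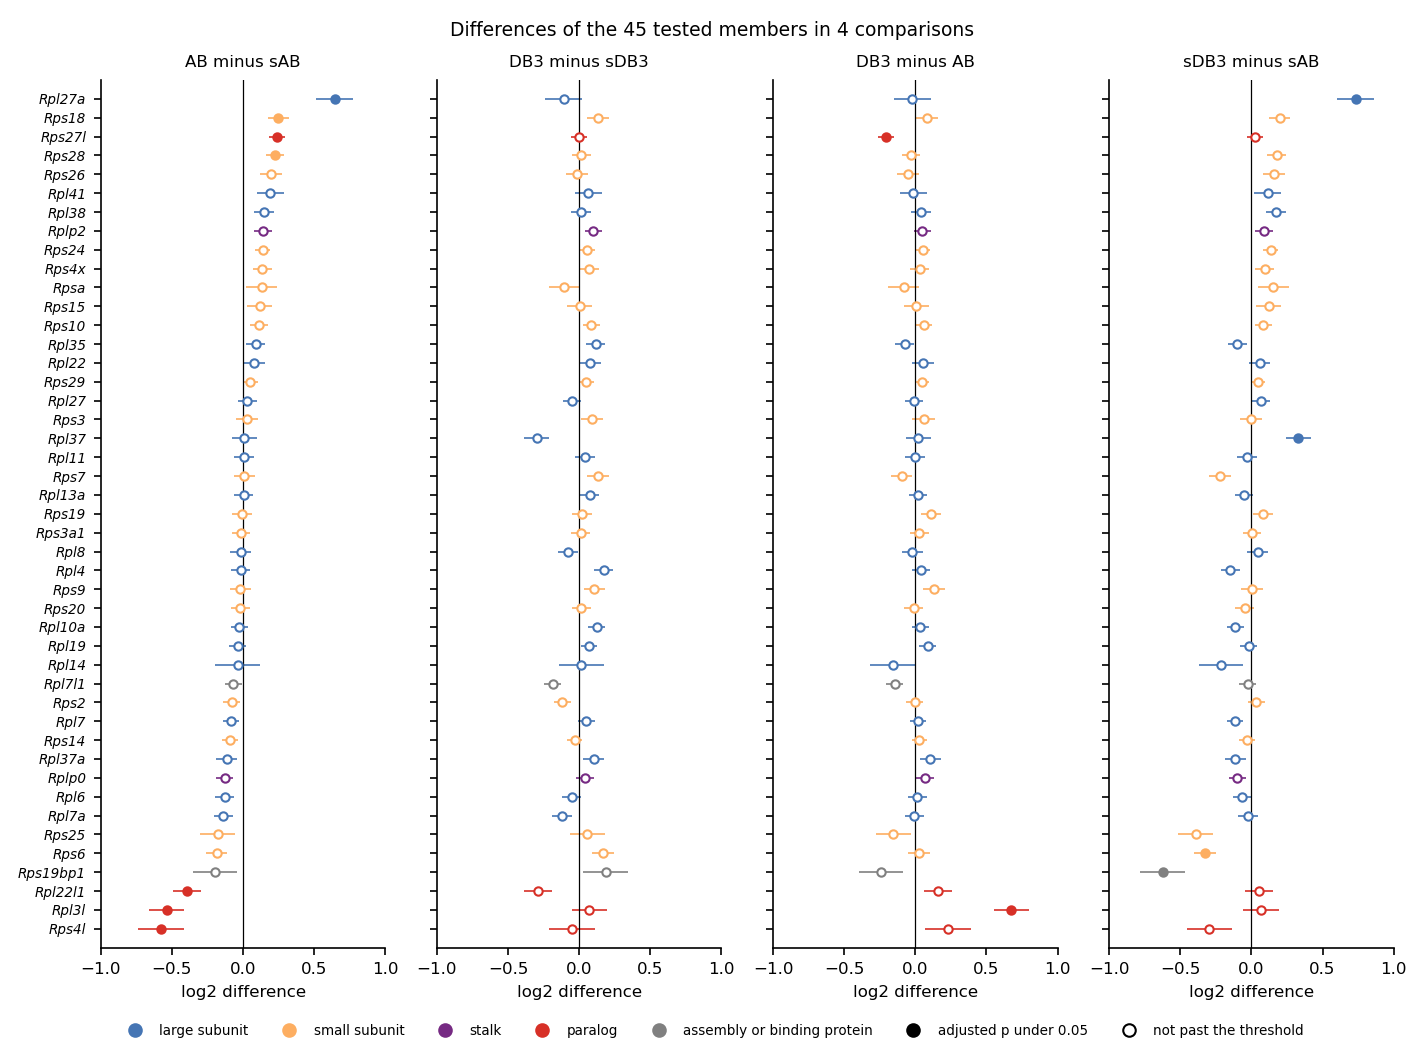
Log2 difference with its SE (x axis) of each tested member (rows, in the order of AB minus sAB) in 4 comparisons, as deposited; filled points passed the threshold and colours give the kind of member. Most points lie within 0.2 of 0, and paralogs hold the 3 lowest values in AB minus sAB.

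At 3 days after debanding no member passed against sDB3 in either direction with limma, against 5.37% of all genes higher and 0.997% lower. At an unadjusted limma p under 0.05 there were 4 of 45 members (Rpl37, Rpl7l1, Rpl22l1 and Rpl4), against 2699 of all 10435 genes. Limma with trend and robust moderation called 1 higher and 1 lower, and the unmoderated analysis of variance called 1 lower. The median member difference was 0.04 and that of all genes 0.09, and 43 of 45 members (95.6%) lay within 0.2, against 63.4% of all genes.

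Rpl3l had 12.43, 12.04 and 12.04 on the DB3 arrays, against 12.14, 12.13 and 12.02 on the sDB3 arrays, a difference of 0.07 ± 0.12 (adjusted p = 0.753). DB3 and sDB3 overlapped. Rpl22l1 had 11.14, 11.42 and 11.14 on the DB3 arrays, with a difference of -0.29 ± 0.10 (adjusted p = 0.0976); 1 DB3 array lay above the lowest sDB3 array. Rps27l had 11.25, 11.29 and 11.38, a difference of 0.00 ± 0.06 (adjusted p = 0.999).

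Rpl37 had the largest difference of any member in DB3 minus sDB3, with 9.40, 9.40 and 9.54 on the DB3 arrays, against 9.73, 9.58 and 9.92 on the sDB3 arrays, without overlap (-0.30 ± 0.09, adjusted p = 0.069). Rpl37 and Rpl22l1 were the 2 members beyond 0.2. Of the remaining named members, Rps6 was at 0.17 (adjusted p = 0.197), Rps19bp1 at 0.18 (adjusted p = 0.489) and Rpsa at -0.11 (adjusted p = 0.56). Rplp0, Rplp2, Rps3, Rps4x, Rpl11 and Rpl22 lay between 0.04 and 0.10, with none passing. After median centring 4 members were lower in DB3 than in sDB3 and none was higher, against 3.33% of all genes lower and 1.22% higher. They were Rpl37 (-0.43, adjusted p = 0.0332), Rpl22l1 (-0.42, adjusted p = 0.0365), Rpl7l1 (-0.32, adjusted p = 0.031), a protein that in human cells takes part in large subunit assembly, and Rps2 (-0.25, adjusted p = 0.0465), a small subunit protein. Rpl7l1 had 9.20, 9.32 and 9.20 as deposited on the DB3 arrays, against 9.44, 9.44 and 9.40 on the sDB3 arrays, without overlap. These 4 calls were each lost on leaving out 4 to 11 of the 12 arrays in turn, and none was made as deposited or after centring on the bright genes.

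Set directly against the still banded ventricle, DB3 had 1 member higher (Rpl3l) and 1 lower (Rps27l) than AB, against 4.04% of all genes higher and 5.12% lower. Rpl3l was 1.6-fold higher in DB3 (0.67 ± 0.12, adjusted p = 0.00931), with no overlap between the 3 DB3 arrays (12.04 to 12.43) and the 3 AB arrays (11.36 to 11.75). This call held whichever array was left out and was lost when only the 2 groups were fitted (adjusted p = 0.0573). In the same comparison the fibroblast marker Mfap5 averaged 9.36 in DB3 and 10.62 in AB (-1.26, adjusted p = 0.0301), the pericyte marker Cspg4 differed by -0.60 and the endothelial marker Egfl7 by -0.31, while no cardiomyocyte marker passed (1 at an unadjusted p under 0.05). These were the called markers only. Of 8 markers each, 2 fibroblast, 4 smooth muscle and pericyte and 1 endothelial marker had a positive difference. The list medians were -0.45, -0.03 and -0.23. The part of these cells in the Rpl3l difference was not tested. Rps27l was 1.16-fold lower in DB3 (-0.21 ± 0.06, adjusted p = 0.0423), again without overlap and lower in all 3 probe sets. The Rps27l call was lost without 10 of the 12 arrays, the exceptions being DB3 replicate 3 and sDB3 replicate 2 (highest adjusted p = 0.139). All 39 subunit and stalk proteins lay within 0.2 in this comparison, and Rpl22l1 was at 0.16 ± 0.10 (adjusted p = 0.345). The median member difference was 0.02, against -0.02 for all genes. After median centring Rpl3l was the only member called, higher in DB3 (0.70), against 4.75% of all genes higher and 4.46% lower.

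The effect of banding followed by debanding minus the effect of banding, tested as the interaction term, passed for no member upwards and for 1 downwards, against 3.45% of all genes upwards and 2.59% downwards. That member was Rpl27a (-0.75 ± 0.18, adjusted p = 0.0397), whose 3 sAB arrays were low as given above, and the call was lost without 10 of the 12 arrays (highest adjusted p = 0.085). Rpl3l had a difference of effects of 0.61 ± 0.18 (adjusted p = 0.0675), Rps6 of 0.35 ± 0.11 (adjusted p = 0.0794), Rps27l of -0.24 ± 0.08 (adjusted p = 0.104) and Rpl22l1 of 0.10 ± 0.14 (adjusted p = 0.692), so for these genes the effects were not shown to differ. After median centring the count was the same, with 1.47% of all genes upwards and 4.12% downwards.

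The shams also differed from each other. In sDB3 minus sAB 2 members were higher (Rpl27a and Rpl37) and 2 lower (Rps19bp1 and Rps6), against 5.49% of all genes higher and 12.3% lower. Rpl27a differed by 0.73 ± 0.13 (1.66-fold, adjusted p = 0.00594) and Rpl37 by 0.33 ± 0.09 (adjusted p = 0.029). Rps19bp1 had 6.65, 6.93 and 7.02 on the sDB3 arrays and 7.34, 7.63 and 7.51 on the sAB arrays, which is 1.54-fold lower in sDB3 (-0.62 ± 0.16, adjusted p = 0.0236). Rps6 had 7.76, 7.53 and 7.52 in sDB3 and 7.88, 7.99 and 7.92 in sAB (-0.33 ± 0.08, adjusted p = 0.0172). None of these 4 genes overlapped between the shams, but they were picked by passing the test. The share without overlap over all genes was not counted. Rpl27a, Rpl37 and Rps6 were each read by 1 tested probe set, with means of 7.37, 9.51 and 7.76 over the 12 arrays. The 39 subunit and stalk proteins averaged 12.86 on the sDB3 arrays. How well these dimmer probe sets read their mRNAs was not tested. The call for Rpl27a held whichever array was left out. The others were lost without sDB3 replicate 1, sDB3 replicate 3 or any single sAB array (Rpl37, highest adjusted p = 0.0713), without sDB3 replicate 1 or 2 or sAB replicate 2 or 3 (Rps19bp1, 0.0742), and without sDB3 replicate 2 or sAB replicate 2 (Rps6, 0.0599).

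The paralogs Rpl3l (0.07), Rpl22l1 (0.06) and Rps27l (0.03) did not pass between the shams. The median member difference was 0.01, against -0.09 for all genes. After median centring 10 members were higher and 1 lower in sDB3, against 10.1% of all genes higher and 4.61% lower. The largest were Rpl27a (0.84), Rpl37 (0.44), Rps18 (0.31), Rps28 (0.29) and Rpl38 (0.28), a large subunit protein needed for axial patterning in mouse embryos, and Rps19bp1 (-0.51) was the lower one. The calls of Rpl27a, Rpl37, Rps18 and Rps28 held whichever array was left out. Without sDB3 replicate 1 or sDB3 replicate 2, 4 of the 10 higher calls were kept, without sAB replicate 2 or sAB replicate 3, 5, and without sAB replicate 1, AB replicate 2, AB replicate 3 or DB3 replicate 2, 6. The Rps19bp1 call was lost without 7 of the 12 arrays. With centring on the bright genes the counts were 2 and 2, as deposited.

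**Figure D4:**
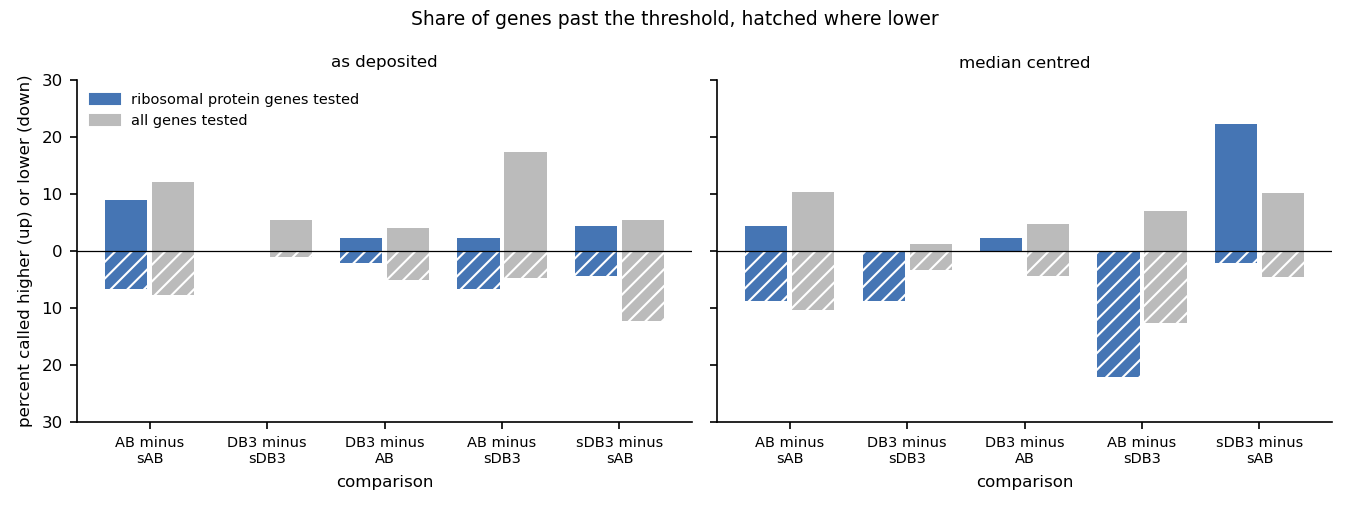
Percent of the 45 tested members (blue) and of all 10435 genes tested (grey) called higher (upward) or lower (downward, hatched) in 5 comparisons, as deposited and after centring on the median of the genes tested. The share of members called lower in AB minus sDB3 and higher in sDB3 minus sAB is larger after centring (10 members in each) than as deposited (3 and 2).

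The genes that build and regulate ribosomes were described beside their proteins. Of 69 tested genes for ribosome assembly, 8 were higher and 2 lower in AB than in sAB, 25 were higher and none lower in AB than in sDB3, and 7 were higher and none lower in DB3 than in sDB3. The shares of all genes called higher and lower were 12% and 7.69%, 17.3% and 4.69%, and 5.37% and 0.997% in these comparisons. In sDB3 minus sAB 1 assembly gene was higher and 14 were lower, against 5.49% and 12.3% of all genes, so the shams differed in this list too. Rrp12, which in yeast takes part in the export of both subunits, averaged 8.19 in AB and 7.25 in sAB (0.94 ± 0.12, adjusted p = 0.000675) and was 0.74 lower in DB3 than in AB (-0.74 ± 0.12, adjusted p = 0.00558). Bop1, of the complex that processes large subunit rRNA, was higher in AB than in sAB by 0.53 ± 0.08 (adjusted p = 0.0012). After median centring 5 assembly genes were higher and 2 lower in AB minus sAB, against 10.4% and 10.3% of all genes. In AB minus sDB3 the counts were 9 and 2, against 7.07% and 12.6% of all genes. None passed in DB3 minus sDB3, where 1.22% of all genes were higher and 3.33% lower. There, 16 of the 69 had an unadjusted limma p under 0.05, against 2472 of all 10435 genes.

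Of 11 tested genes of the RNA polymerase I machinery, which makes rRNA, none passed in AB minus sAB. At an unadjusted limma p under 0.05 there was 1, against 3524 of all 10435 genes. Against sDB3, 3 were higher in AB, where 17.3% of all genes were. Polr1e averaged 7.72 in DB3, 8.48 in AB, 7.66 in sDB3 and 8.38 in sAB (AB minus sDB3 0.82 ± 0.11, adjusted p = 0.00108). In sDB3 minus sAB 3 genes of this list were lower, against 12.3% of all genes: Taf1b (-0.76), Polr1e (-0.72) and Polr1c (-0.43). Of 32 initiation factors, 4 were higher and 2 lower in AB than in sAB, near the shares of all genes (12% and 7.69%), with Eif3a at 0.33 ± 0.07 (adjusted p = 0.00617). Of 6 elongation factors, Eef1a2 (0.53, adjusted p = 0.000566), the form found in muscle, and Eef2 (0.27, adjusted p = 0.0189) were higher in AB than in sAB, and both were also higher in sDB3 than in sAB (0.51 and 0.27). Of 17 genes between mTOR and translation, 3 were higher in AB than in sAB, where 12% of all genes were. Myc, a transcription factor that drives ribosome production, averaged 5.34 in DB3, 6.01 in AB, 4.68 in sDB3 and 4.80 in sAB. AB minus sDB3 was 1.33 ± 0.15 (adjusted p = 0.000522) and AB minus sAB 1.21 ± 0.15 (adjusted p = 0.00054). DB3 minus AB was -0.67 ± 0.15 (adjusted p = 0.0203). DB3 minus sDB3 was 0.66 ± 0.15 (adjusted p = 0.0334), a call lost after median centring (adjusted p = 0.0673). The sham levels of Myc lay near the dim filter of log2 4. Eif4ebp2, a repressor of initiation, averaged 8.49 in DB3, 8.35 in AB and 8.32 in sDB3 and was low in sAB alone (6.29; AB minus sAB 2.06 ± 0.10, adjusted p = 1.57e-06).

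The mitochondrial ribosome is built from other genes. Of its 76 tested proteins, none was higher and 13 were lower in AB than in sAB, with a median of -0.11, against 7.69% of all genes called lower. In sDB3 minus sAB 1 was higher and 10 were lower (median -0.11), against 5.49% and 12.3% of all genes. In AB minus sDB3 1 was higher and 5 were lower (median -0.01), against 17.3% and 4.69% of all genes. In DB3 minus sDB3 none was higher and 1 was lower, against 5.37% and 0.997%. After median centring 25 were lower in AB minus sAB and 20 in DB3 minus sDB3, against 10.3% and 3.33% of all genes. Fau, which encodes the small subunit protein eS30 fused to a ubiquitin-like peptide, was the only cytosolic ribosomal protein gene with a name outside the rule that was tested. It differed by -0.07 ± 0.08 in AB minus sAB (adjusted p = 0.615) and by 0.10 ± 0.08 in DB3 minus sDB3 (adjusted p = 0.464).

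Of the 50, 5 members could not be followed: Rpl12, Rpl39, Rpl39l, Rps16 and Rps27 had log2 values of at most 3.67 on every array, close to the floor of 2.23, and only a bound on their level is available from these probe sets. Of the tested members, 16 were represented by probe sets whose names mark possible cross-hybridisation, which matters here because ribosomal protein genes have many processed pseudogenes with near-identical sequence. A further 110 probe sets with several symbols, 1 or more of them of the family, were left out, so 31 symbols including Rpl3, Rpl5, Rpl10, Rplp1, Rpl36a and Rpl36al were not analysed here. Among the 20 members with more than 1 tested probe set, AB minus sAB differed in sign between probe sets of Rpl13a, Rpl35, Rpl41, Rpl7l1, Rps20, Rps24, Rps3 and Rps9, all within 0.3 of 0.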

How the data were processed

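Total RNA of left ventricular myocardium from 12 mice was hybridised to Affymetrix arrays, 1 per mouse. The authors deposited log2 values per probe set, made with GCRMA per the submitters' processing notes; its version is not given in the sources used here. GCRMA corrects the background by probe sequence and equalises the arrays, so a change shared by all genes is not kept. Scanner files and scan dates were not used here, and 3 arrays per group limit the precision. Of 45101 probe sets, 34945 carried 1 gene symbol, 932 several and 9160 none in the platform annotation, and 34741 of the single symbols were found in the RefSeq gene table.

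Probe sets above log2 4 on at least 3 of the 12 arrays were kept (17817), each gene was represented by its brightest one (10435 genes), and all 4 groups were fitted together in limma 3.58.1 (R 4.3.3) with 8 residual and 2.68 prior degrees of freedom. P-values were adjusted over all genes by the Benjamini-Hochberg method, and a gene passed at an adjusted p under 0.05. An error after ± beside a difference is the SE of the fit, and beside a mean the SD. The fit was tested on simulated data. The labels describe separate mice only through separate samples, so p-values measure the spread between these samples, and replicate numbers follow the order of the records.

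Named members were, per comparison and scale, up to 5 of the largest in each direction that passed, and a fixed set of subunits and paralogs; of other lists, up to 3 past the threshold and every ribosomal protein under another name. Genes singled out beyond that were chosen after their values were seen. The members and lists were chosen with earlier results of these data known. Alternatives were other centrings, quantile normalization, other dim filters, other probe sets per gene, other fits and each array left out. The centred fit with each array left out was chosen after seeing the data.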

Additional observations from a re-analysis of the deposited data

Results flagged for a closer look

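The effect of debanding after banding (DB3 minus sDB3) minus the effect of banding (AB minus sAB) was -0.75 for Rpl27a on the log2 scale (limma, adjusted p = 0.0397). It is listed because the test of the difference between the effects passed. The effects were -0.11 in DB3 minus sDB3 and 0.64 in AB minus sAB, and the 3 sAB arrays lay below the other 9. The same 3 arrays stood apart on the BioC control, where they were higher. The part of this in the Rpl27a result was not tested.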

How the results depend on the processing

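No paired analysis was possible because the labels give no replicate numbers, only separate samples. Leaving out 1 array at a time, the members called higher and lower ranged from 1 to 4 and 0 to 3 in AB minus sAB, 0 to 2 and 2 to 3 in AB minus sDB3, 1 to 1 and 0 to 1 in DB3 minus AB, 0 to 0 and 0 to 0 in DB3 minus sDB3, 0 to 1 and 0 to 1 for the difference of effects, and 1 to 2 and 0 to 3 in sDB3 minus sAB. Centring on the genes tested gave 2 higher in AB minus sAB, 4 lower in DB3 minus sDB3, 10 higher and 1 lower in sDB3 minus sAB, 0 lower in DB3 minus AB, and 0 higher and 10 lower in AB minus sDB3. It moved the mean of the members to 12.43 in AB and 12.59 in sDB3. Centring on all probe sets gave 4 higher in AB minus sDB3, and quantile normalization 2 higher there and 0 lower in DB3 minus AB. A filter above log2 6 gave 2 higher in AB minus sDB3, and no filter 1 lower in sDB3 minus sAB. Averaging the probe sets of each gene gave 2 higher in AB minus sAB and 2 lower for the difference of effects, with member means of 11.95 (DB3), 11.93 (AB), 11.93 (sDB3) and 11.94 (sAB). Without probe sets marked for cross-hybridisation there were 2 lower for the difference of effects, 1 higher in sDB3 minus sAB, 0 lower in DB3 minus AB and 0 higher in AB minus sDB3, with member means of 11.68 (DB3), 11.66 (AB), 11.66 (sDB3) and 11.69 (sAB). Both use other probe sets, so these levels differ by construction. Fitting only the groups compared gave 2 higher in AB minus sAB, 1 higher and 1 lower in sDB3 minus sAB, 0 and 0 in DB3 minus AB, and 0 higher in AB minus sDB3. Trend and robust moderation gave 7 higher in AB minus sAB, 1 and 1 in DB3 minus sDB3, 1 higher for the difference of effects, 6 higher in sDB3 minus sAB and 3 higher in AB minus sDB3. The unmoderated analysis of variance gave 1 lower in DB3 minus sDB3, 4 higher in sDB3 minus sAB and 3 higher in AB minus sDB3. Apart from centring on the genes tested, the share of all genes called was not counted under these alternatives. Whether a setting called more or fewer of all genes therefore cannot be read from the member counts. The cause of these moves was otherwise not tested. No call reversed its direction under the alternatives run. Members near the floor could not be tested at this signal over background.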
